A study of Caenorhabditis elegans with 12 samples.

Results

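The 10 genes described here encode enzymes that put double bonds into fatty acids (the desaturases fat-1, fat-2, fat-3, fat-4, fat-5 and fat-6) or lengthen them (the elongases elo-1, elo-2, elo-5 and elo-6) in the nematode Caenorhabditis elegans. They were chosen by name, and all 10 of them were found among the 14505 genes measured. The desaturase gene fat-7 was not among the genes measured and is not a member. Polyadenylated RNA of whole animals at the L4 larval stage was sequenced in 12 libraries, 3 biological replicates of each of 4 strains. The wild type was N2. WBM55 carried CA-CRTC-1, the transcriptional coactivator CRTC-1 with the changes S76A and S179A. WBM60 carried CA-AAK-2, made from AAK-2, which is a catalytic subunit of the energy sensor AMP-activated protein kinase. WBM66, the double strain below, carried the pair. All strains were synchronised by hypochlorite treatment and fed Escherichia coli OP50-1. The promoters of the transgenes and the number of independent lines are not given in the sources used here, so each transgenic group stands for 1 strain.

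Worms make unsaturated fatty acids from saturated ones in a fixed order. FAT-5 acts on palmitic acid and FAT-6 on stearic acid, each adding the first double bond, and FAT-2 turns oleic acid into linoleic acid. FAT-3 and FAT-4 add further double bonds on the way to arachidonic acid, FAT-1 turns omega-6 into omega-3 fatty acids, ELO-1 lengthens the polyunsaturated chains and ELO-2 lengthens palmitic acid. ELO-5 and ELO-6 serve a separate branch, in which precursors from branched-chain amino acids become monomethyl branched-chain fatty acids that larvae need to grow. Much of the animal's fat metabolism takes place in the intestine.

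Levels are in CPM, the counts of a gene as a share of its library after the authors' scaling, and trace back to 30887631 to 48989013 reads counted in a library; in single libraries a member drew on 528 to 33699 reads. The labels were checked by the transgenes: aak-2 stood at 61.7 CPM in N2 and at 2530 CPM and 2992 CPM in CA-AAK-2 and the double strain, and crtc-1 at 20.50 CPM in N2 and at 189 CPM and 362 CPM in CA-CRTC-1 and the double strain. All 13 intestinal marker genes listed were detected in every library, with a summed level of 5012 to 5342 CPM in N2, 5496 to 6507 CPM in CA-CRTC-1, 4153 to 4804 CPM in CA-AAK-2 and 6027 to 6572 CPM in the double strain. Marker by marker the list did not follow its sum: 8, 12 and 10 of the 13 had negative differences from N2 in CA-CRTC-1, in CA-AAK-2 and in the double strain, with medians of -0.04, -0.35 and -0.30. The 10 markers of oogenesis summed to 780 to 906 CPM in N2, to 1265 to 1318 CPM in CA-CRTC-1, to 1779 to 1815 CPM in CA-AAK-2 and to 1902 to 3235 CPM in the double strain; limma called 6, 10 and 10 of them higher than N2, with median differences of 0.63, 1.15 and 1.68. The 8 markers of body wall muscle summed to 14160 to 15270 CPM in N2 and to 12160 to 13380 CPM in CA-AAK-2, where all 8 were below N2 and 0 were called. The 12 markers of hypodermis summed to 1246 to 1286 CPM in N2 and to 1813 to 2816 CPM across the transgenic strains, and the 8 of pharynx to 599.9 to 678 CPM in N2 and 347 to 420.5 CPM in CA-AAK-2; no marker of these lists was at 0 in any library. Calls needed both an adjusted p (limma, Benjamini-Hochberg over all genes) no higher than 0.01 and a 1.5-fold change. Rescaling the libraries by their median ratio lowered the median log2 difference from N2 of all genes by 0.13 in CA-AAK-2 and by 0.14 in the double strain. It turned the calls from 850 higher and 456 lower to 504 and 713 in CA-AAK-2, from 1655 and 728 to 1131 and 1069 in the double strain, and from 696 and 228 to 594 and 321 in CA-CRTC-1.

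Per length of exon, the elongase of branched chains elo-6 and the desaturases fat-6 and fat-2 were the most abundant of the 10 genes in N2, together with elo-1, and fat-5 was the least. The N2 means were 458 ± 54.8 CPM per kb for elo-6, 397 ± 12.7 for fat-6, 384 ± 17.0 for fat-2 and 367 ± 4.05 for elo-1 (SD, n = 3), and the library ranges of neighbours in this order overlapped. Below these 4 genes each level was separate from the next, with fat-1 at 235.1 CPM per kb, elo-5 at 164, elo-2 at 115, fat-4 at 93.8, fat-3 at 42.3 and fat-5 at 23.3. The highest mean was thus 19.6 times the lowest in N2. Per coding length, elo-6 again had the highest mean, at 516 CPM per kb, followed by fat-6 at 455, elo-1 at 450 and fat-2 at 427.

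The order at the top differed between the strains. In the double strain fat-2 led at 543 ± 26.98 CPM per kb, and its 3 libraries lay above those of fat-6 (308 ± 81.5), elo-1 (261 ± 28.7) and elo-6 (245 ± 26.6), which overlapped as neighbours. In CA-AAK-2, fat-6 and fat-2 stood at 413 CPM per kb each, ahead of elo-1 at 315 and elo-6 at 268. In CA-CRTC-1, fat-2 led at 394 CPM per kb, followed by fat-6 at 342, elo-6 at 341 and elo-1 at 337, whose ranges overlapped as neighbours. The desaturases fat-3 and fat-5 kept the 2 lowest places in all 4 strains, with means of 40.2 to 48.3 and 16.9 to 27.8 CPM per kb.

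**Figure D1:**
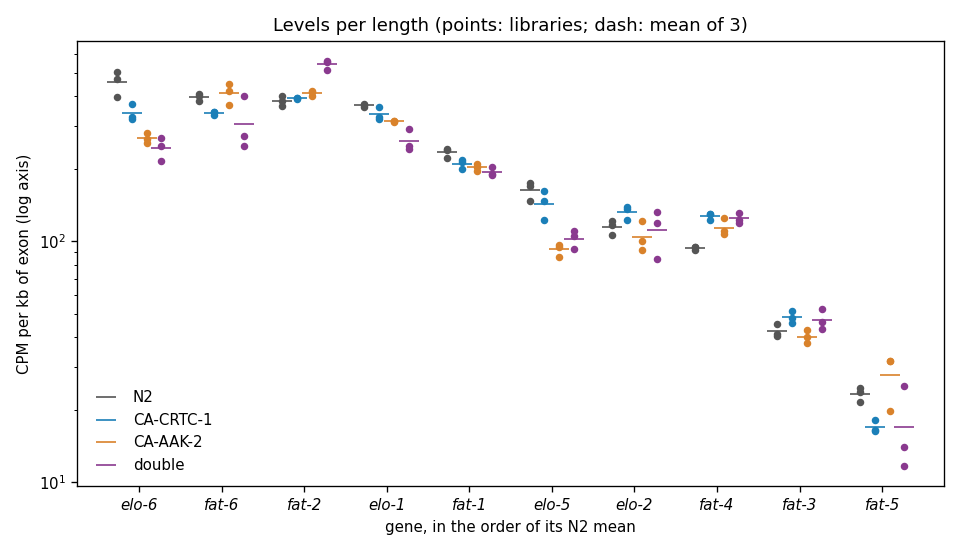
Level of each gene per length (CPM per kb of exon, log axis), in the order of the N2 means, with 1 point per library, a dash at the mean of 3 libraries and 1 colour per strain. elo-6 leads in N2 (458) and stands below fat-2 (543), fat-6 (308) and elo-1 (261) in the double strain (245).

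The branched-chain elongases elo-5 and elo-6 were the only members called lower than N2 in animals with CA-AAK-2. Below every N2 library without a call were also fat-1 and elo-1. Their log2 differences were -0.21 and -0.22 in CA-AAK-2 and -0.28 and -0.49 in the double strain. In the 3 N2 libraries elo-5 stood at 160.5, 157 and 136 CPM, and in the 3 CA-AAK-2 libraries at 79.3, 89.3 and 87.3 CPM. The double strain had 85.4, 101.4 and 96.7 CPM and CA-CRTC-1 had 113, 149 and 135 CPM. Both strains with CA-AAK-2 lay wholly below N2 and below CA-CRTC-1, whereas CA-CRTC-1 overlapped N2. The difference from N2 was a log2 value of -0.82 ± 0.10 (SE) in CA-AAK-2 (adjusted p = 3.27e-05) and -0.67 ± 0.10 in the double strain (adjusted p = 6.09e-05), that is 1.77-fold and 1.596-fold lower. In CA-CRTC-1 it was -0.20 ± 0.10, with a 95% interval from -0.41 to 0.02 (adjusted p = 0.173).

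For elo-6 the N2 libraries held 439, 466 and 368 CPM. CA-CRTC-1 held 303, 346 and 297 CPM, CA-AAK-2 held 238, 262 and 245 CPM, and the double strain held 199.8, 231 and 248 CPM. Every transgenic library was below every N2 library, and the 2 strains with CA-AAK-2 overlapped each other and lay below CA-CRTC-1. The elongase gene fell by 0.77 ± 0.10 on the log2 scale in CA-AAK-2 (adjusted p = 4.20e-05) and by 0.90 ± 0.10 in the double strain (adjusted p = 2.90e-06), or 1.70-fold and 1.87-fold. The value for CA-CRTC-1, -0.42 ± 0.10 (adjusted p = 0.00551), passed the p threshold and not the fold threshold. Under median-ratio scaling the 4 called values of elo-5 and elo-6 lay between -0.82 and -1.05.

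Adding CA-AAK-2 to CA-CRTC-1 gave nearly equal values for the pair, -0.48 ± 0.10 for elo-5 (adjusted p = 0.00237) and -0.48 ± 0.10 for elo-6 (adjusted p = 0.00182), both under 1.5-fold. Without CA-CRTC-1 replicate 1, whose elo-5 level was the lowest of that strain, elo-5 was called in this comparison at -0.59. Adding CA-CRTC-1 to CA-AAK-2 gave 0.15 ± 0.10 for elo-5 and -0.14 ± 0.10 for elo-6, with adjusted p of 0.297 and 0.308 and 95% intervals from -0.07 to 0.36 and from -0.35 to 0.07. The interaction is the effect of CA-CRTC-1 in animals with CA-AAK-2 less its effect in animals without. In limma it was 0.34 ± 0.14 for elo-5 (adjusted p = 0.109) and 0.29 ± 0.14 for elo-6 (adjusted p = 0.159). These effects were measured at unlike crtc-1 levels. The log2 difference of crtc-1 was 3.18 in CA-CRTC-1 against N2 and 4.15 in the double strain against CA-AAK-2. The part of this in the interaction values was not tested. In whole animals fewer cells that use a gene and less RNA per cell cannot be told apart. Of the 13 intestinal markers, 2 were called lower and 0 higher in CA-AAK-2 against N2, and 3 lower and 2 higher in the double strain, and 12 and 10 of the 13 were below N2 in these strains. The oogenesis markers were above N2 in both. The part of tissue makeup in these results was not tested. The gene F41H10.3 lies on the opposite strand and shares 162 bases of exon with elo-5 in the WBcel235 annotation, and the library kit does not keep the strand. The level of F41H10.3 was 63.7 CPM in N2, 75.7 CPM in CA-AAK-2 and 74.8 CPM in the double strain. How reads of the shared bases were assigned was not tested.

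**Figure D2:**
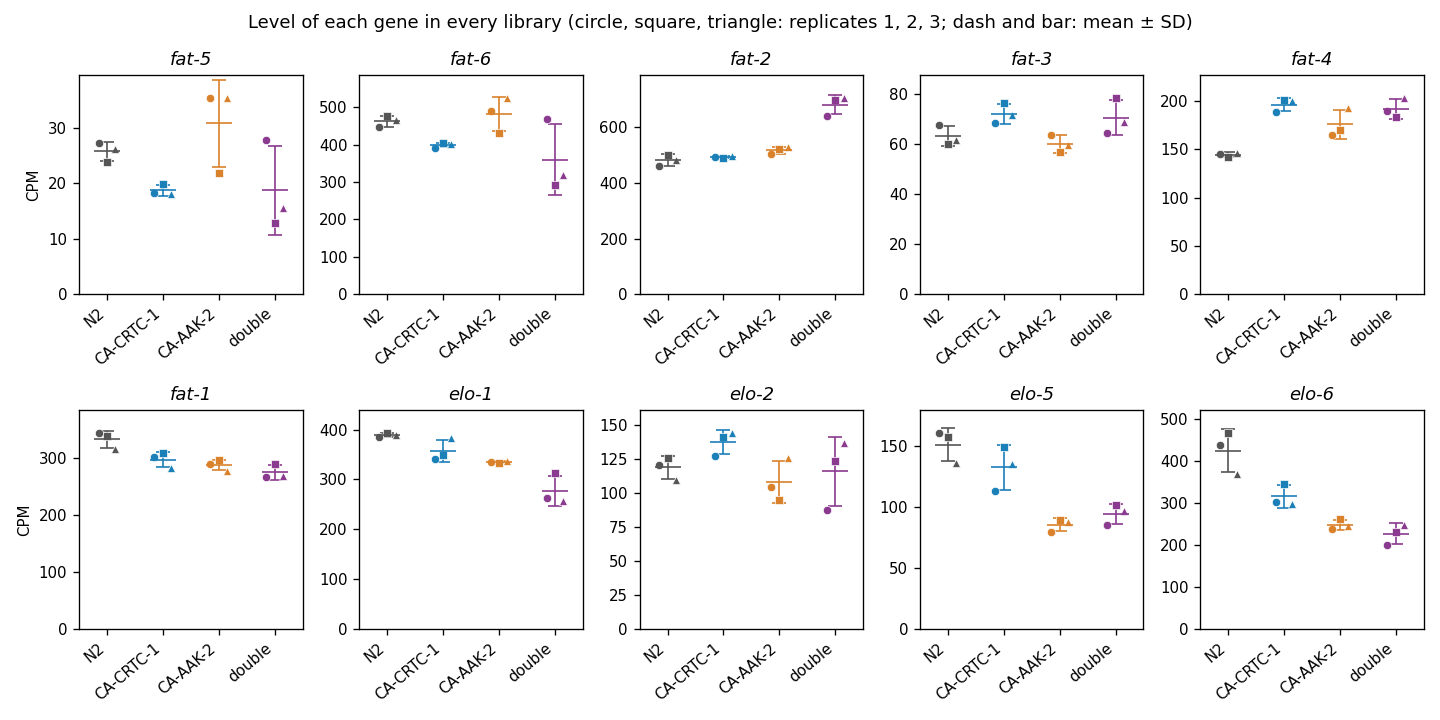
CPM of each of the 10 genes in every library, 1 panel per gene with axes from 0; circles, squares and triangles are replicates 1, 2 and 3, and the dash and bar are the mean and SD of 3 libraries. elo-5 and elo-6 are low in both strains with CA-AAK-2, fat-2 is high in the double strain alone (643 to 705 CPM), and fat-5 and fat-6 spread widely in the double strain.

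In the double strain fat-5 and fat-6 varied most among replicates of the 10 genes, and in CA-AAK-2 fat-5 did. Replicates of these strains also differed more over all genes. Measured against sampling noise, the chi-square per gene between 2 replicates was 28.7 to 79.97 in the double strain and 21.92 to 32.13 in CA-AAK-2. It was 13.35 to 20.6 in CA-CRTC-1 and 8.602 to 14.63 in N2. For fat-5, the palmitic acid desaturase, N2 held 27.2, 23.8 and 26.2 CPM and CA-CRTC-1 held 18.1, 19.9 and 18.01 CPM. CA-AAK-2 held 35.3, 21.7 and 35.2 CPM, and the double strain held 27.8, 12.9 and 15.4 CPM. CA-CRTC-1 was wholly below N2, while the other 2 strains overlapped N2. The coefficient of variation of fat-5 was 6.66% in N2, 5.64% in CA-CRTC-1, 25.4% in CA-AAK-2 and 42.6% in the double strain. No difference from N2 passed the test in limma. The values were -0.45 ± 0.22 in CA-CRTC-1 (adjusted p = 0.156), 0.22 ± 0.22 in CA-AAK-2 (adjusted p = 0.444) and -0.53 ± 0.22 in the double strain (adjusted p = 0.0562). The SE is shared by these comparisons, because all strains were fitted together. It thus includes the wide spread of CA-AAK-2 and the double strain. The smaller spread within N2 and CA-CRTC-1 is not what it describes, so a lack of difference between them is not shown.

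For fat-6, the stearic acid desaturase, N2 held 446, 475 and 466 CPM, CA-CRTC-1 held 392, 403 and 402 CPM, and CA-AAK-2 held 489, 431 and 523 CPM. The double strain held 468, 291 and 318 CPM, so that its replicate 1 lay within the N2 range and the other two far below. CA-CRTC-1 was again wholly below N2, by a log2 value of -0.21 ± 0.13 that did not pass the test (adjusted p = 0.249). This SE likewise includes the wide spread of the double strain, so a lack of difference from N2 is not shown. The double strain gave -0.40 ± 0.13 against N2 (adjusted p = 0.0172) and CA-AAK-2 gave 0.05 ± 0.13 (adjusted p = 0.761). Reads of fat-6 may be shared with its near-identical paralogue fat-7, which was not among the genes measured. The level of fat-6 is uncertain to that extent.

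The calls of both genes changed when single libraries were left out. Without replicate 1 of the double strain, fat-5 and fat-6 were called lower in the double strain than in N2, at -0.84 and -0.60 (adjusted p = 0.00119 and 5.60e-05), and lower than in CA-AAK-2, at -1.06 and -0.66. With all libraries the differences from CA-AAK-2 were -0.75 ± 0.22 for fat-5 and -0.45 ± 0.13 for fat-6, with adjusted p of 0.0184 and 0.0154. Same-numbered libraries of CA-AAK-2 and the double strain deviated together, and the numbers were taken to pair them. That pairing was read from these same data and is not stated by the labels. With replicate number as a block in limma, fat-5 was called at -0.75 (adjusted p = 0.00734), while fat-6 was not (adjusted p = 0.0130). That block was shared by all 12 libraries, also those of the strains not found to pair, and a blocked fit of these strains alone was not run. fat-5 was also called without CA-AAK-2 replicate 2, its lowest library there, at -0.97. The overlap of fat-5 with its neighbour twk-42 on the opposite strand is 28 bases, and twk-42 stood at 5.97 to 7.50 CPM in the 4 strains.

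In CA-AAK-2 and in the double strain the same libraries were high or low for both genes, whereas in N2 replicates 1 and 2 and in CA-CRTC-1 replicate 3 the deviations had opposite signs. Taken as deviations from the strain means on the log2 scale, fat-5 and fat-6 correlated at r = 0.92 over the 12 libraries, which share 4 strain means and so leave 8 free values. elo-5 and elo-6 correlated at r = 0.76 in the same way, and the neighbouring genes fat-3 and fat-4 at r = -0.12. The largest deviations of fat-5 were those of double-strain replicates 1 and 2 and of CA-AAK-2 replicate 2.

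**Figure D3:**
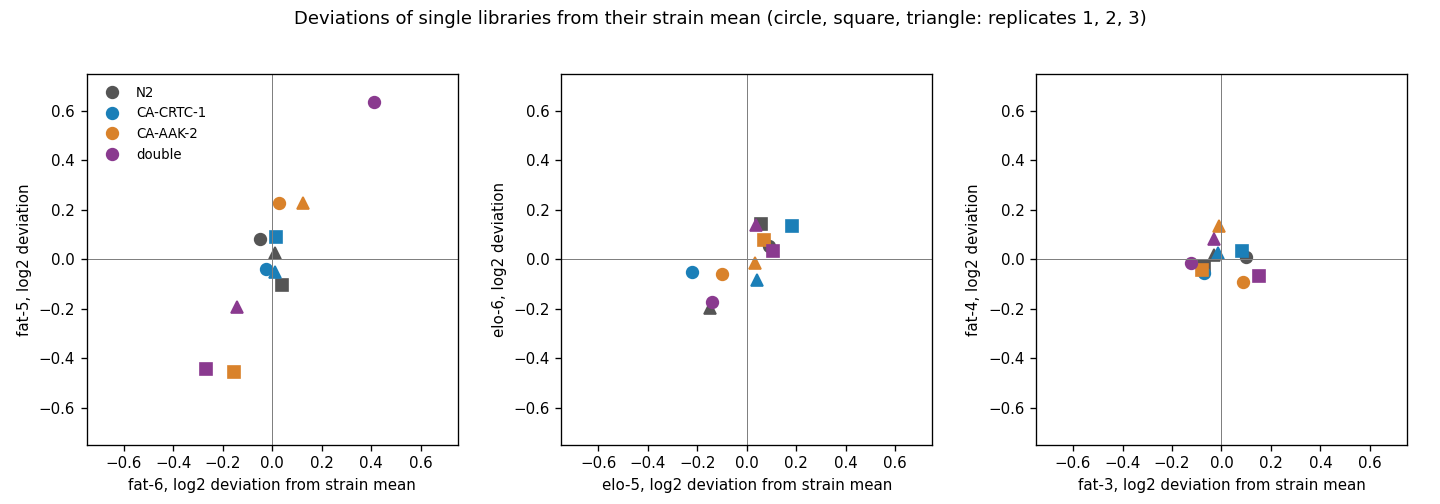
Deviation of each library from its strain mean (log2 scale) for fat-6 and fat-5 (left), elo-5 and elo-6 (middle) and fat-3 and fat-4 (right); colours are strains, and circles, squares and triangles are replicates 1, 2 and 3. The fat-6 and fat-5 points follow a line from double-strain replicate 2 at the lower left to double-strain replicate 1 at the upper right, and the fat-3 and fat-4 points (r = -0.12) form no line.

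fat-2, which makes linoleic acid, was highest in the double strain. N2 held 460, 502 and 482 CPM, CA-CRTC-1 held 495, 491 and 496 CPM, and CA-AAK-2 held 503, 523 and 528 CPM. The double strain held 643, 697 and 705 CPM, above all 9 other libraries. The difference of the double strain was 0.50 ± 0.06 from N2 (adjusted p = 7.63e-06), 0.40 ± 0.06 from CA-AAK-2 (adjusted p = 0.000149) and 0.46 ± 0.06 from CA-CRTC-1 (adjusted p = 6.10e-05). These values are 1.42-fold, 1.31-fold and 1.38-fold, under the fold threshold, and remained so under median-ratio scaling at 0.36, 0.38 and 0.40. Either transgene alone gave 0.04 ± 0.06 (CA-CRTC-1, adjusted p = 0.678) and 0.11 ± 0.06 (CA-AAK-2, adjusted p = 0.164), and these signs reversed under median-ratio scaling, to -0.04 and -0.02. The interaction was 0.36 ± 0.09 (95% interval 0.17 to 0.54, adjusted p = 0.00876), past the p threshold alone.

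The later polyunsaturated steps are those of FAT-3, FAT-4 and FAT-1. fat-4, which acts last before arachidonic acid, stood at 145, 141.5 and 146 CPM in N2. It stood at 189, 200.5 and 199 CPM in CA-CRTC-1, at 164, 170.2 and 192 CPM in CA-AAK-2 and at 189, 183 and 203 CPM in the double strain. All 9 transgenic libraries were above the N2 range, and the differences from N2 were 0.44 ± 0.07 (adjusted p = 0.000248), 0.28 ± 0.07 (adjusted p = 0.00406) and 0.41 ± 0.07 (adjusted p = 0.000150). None reached 1.5-fold, and under median-ratio scaling they were 0.36, 0.15 and 0.26. The fat-4 interaction was -0.31 ± 0.10 (adjusted p = 0.0336).

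fat-3, the step before ELO-1, held 67.6, 60.0 and 61.7 CPM in N2 and 64.5, 78.2 and 68.8 CPM in the double strain. The single strains held 68.5, 76.4 and 71.3 CPM with CA-CRTC-1 and 63.7, 56.6 and 59.5 CPM with CA-AAK-2. The strains overlapped N2 except for CA-CRTC-1, which lay just above it. The fat-3 differences from N2 were 0.19 ± 0.08, -0.07 ± 0.08 and 0.16 ± 0.08 in CA-CRTC-1, in CA-AAK-2 and in the double strain, with adjusted p of 0.103, 0.482 and 0.116.

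fat-1, which makes omega-3 fatty acids, held 344, 339 and 316 CPM in N2 and 301, 308 and 283 CPM in CA-CRTC-1. It held 289, 296 and 278 CPM in CA-AAK-2 and 266, 289.6 and 268 CPM in the double strain. N2 was above the other 3 strains, which overlapped one another in neighbouring pairs. The double strain differed from N2 by -0.28 ± 0.06 (adjusted p = 0.00162), CA-AAK-2 by -0.21 ± 0.06 (adjusted p = 0.0133) and CA-CRTC-1 by -0.16 ± 0.06 (adjusted p = 0.0690), all well under 1.5-fold.

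fat-1 and fat-2 are neighbours on the same strand of chromosome IV, and their levels moved apart. Within single libraries the ratio of fat-2 to fat-1 CPM was 1.34 to 1.53 in N2, 1.59 to 1.76 in CA-CRTC-1, 1.74 to 1.90 in CA-AAK-2 and 2.41 to 2.63 in the double strain. The ratio does not depend on how libraries are scaled, and the ranges of N2 and the double strain were far apart. This ratio was chosen after its values were seen and was not tested. fat-4 and fat-3 are likewise adjacent on chromosome IV, as are elo-1 and elo-7; elo-5 and elo-6 lie near each other there with other genes between them. Of the 10 members fat-5 is on chromosome V and the others are on IV in the WBcel235 annotation.

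elo-1, the polyunsaturated elongase, stood at 384, 393 and 389.6 CPM in N2, at 340.4, 350.0 and 383 CPM in CA-CRTC-1, at 335, 333 and 337 CPM in CA-AAK-2 and at 263, 312 and 256 CPM in the double strain. The double strain was below all other libraries. Its difference from N2 was -0.49 ± 0.07 (adjusted p = 5.72e-05), or 1.41-fold lower and so not called. It was called under median-ratio scaling (-0.64), by edgeR on the recovered reads (-0.63) and by DESeq2 (-0.63). The elo-1 values of the double strain against CA-AAK-2 and CA-CRTC-1 were -0.28 ± 0.07 (adjusted p = 0.00960) and -0.37 ± 0.07 (adjusted p = 0.00155), and CA-AAK-2 against N2 gave -0.22 ± 0.07 (adjusted p = 0.0260).

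elo-2, the palmitic acid elongase, showed the least pattern. N2 held 121, 126 and 109.7 CPM, CA-CRTC-1 held 127, 141 and 144 CPM, CA-AAK-2 held 104.5, 94.99 and 126 CPM, and the double strain held 87.7, 123 and 137 CPM. CA-CRTC-1 lay just above N2 and the other strains overlapped it. The elo-2 difference from N2 was 0.21 ± 0.14 in CA-CRTC-1, -0.14 ± 0.14 in CA-AAK-2 and -0.06 ± 0.14 in the double strain, with adjusted p of 0.284, 0.420 and 0.736. The 95% interval for the double strain ran from -0.35 to 0.24, so changes within it were not excluded with 3 libraries. It does not give the smallest change that would have been called.

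**Figure D4:**
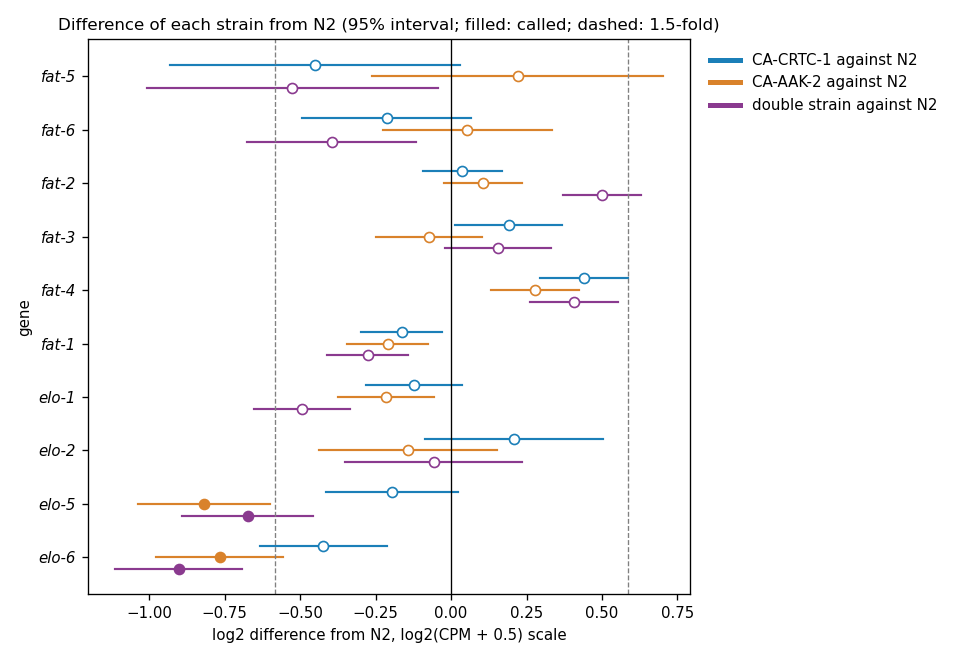
Log2 difference of each strain from N2 for the 10 genes with 95% intervals from limma; filled points are called and dashed lines mark 1.5-fold. The filled points are elo-5 and elo-6 in CA-AAK-2 and in the double strain, while fat-2 in the double strain (0.50) and the points of fat-4 in all 3 strains stay inside the lines.

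Counted by comparison, few members were called. In CA-CRTC-1 against N2 limma called 0 of 10, as did edgeR and DESeq2 on the recovered reads. Of all genes tested 6.62% were called higher and 2.17% lower. There were 4 members at an unadjusted p under 0.05 in limma, a looser rule whose share over all genes is not given here. In CA-AAK-2 against N2, 0 members were called higher and 2 lower, elo-5 and elo-6, beside 8.20% of all genes called higher and 4.40% called lower. In the double strain against N2, the same 2 genes were called lower and 0 higher, beside 15.6% higher and 6.87% lower among all genes. These comparisons share their N2 libraries and are not independent. The median difference from N2 of the 10 members was -0.14 in CA-CRTC-1, -0.11 in CA-AAK-2 and -0.34 in the double strain, and that of all genes was 0.07, 0.11 and 0.14.

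Between the transgenic strains limma, edgeR and DESeq2 each called 0 members. Of all genes 7.66% were called higher and 3.63% lower in the double strain against CA-AAK-2, and the medians were 0.01 for the members and 0.02 for all genes. There were 5 members at an unadjusted p under 0.05 in limma. That rule is looser than a call, and its share over all genes is not given here for any of these comparisons. In the double strain against CA-CRTC-1, 4.68% of all genes were called higher and 4.17% lower, and the medians were -0.15 and 0.07. By the looser rule there were 4 members. For the interaction limma, edgeR and DESeq2 called 0 members, and 3.91% of all genes were called higher and 4.82% lower. By the looser rule 3 members passed.

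With an adjusted p of 0.05 and no fold threshold members passed about as often as other genes. In CA-CRTC-1 against N2 these were 2 members, elo-6 and fat-4, beside 26.6% of all genes. In CA-AAK-2 against N2 they were 5, beside 48.5%, and in the double strain against N2 they were 7, beside 60.0%. The double strain differed in 5 members from CA-AAK-2, beside 35.3%, and in 4 from CA-CRTC-1, beside 39.2%. The interaction gave 2 members, fat-2 and fat-4, beside 20.7%.

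Across the 12 libraries, which share 4 strains, 6322 genes with a standard symbol were compared with each member by Pearson's r of log2(CPM + 0.5), as a description. Among the members themselves fat-5 and fat-6 were most alike (r = 0.94, Spearman's rho = 0.94), followed by fat-1 and elo-6 (r = 0.92, rho = 0.85). Outside the members, elo-5 was most like gldc-1 (r = 0.98), gcsh-1 (0.97) and ifp-1 (0.97), and elo-6 was most like ampd-1 (0.97), gcsh-1 (0.96) and clec-86 (0.96). The pattern of fat-4 was most like that of cmk-1 (0.99), qdpr-1 (0.97) and crh-2 (0.96). For fat-2 the genes were hpo-6, lipl-2 and rop-1 (0.95 each), and for elo-1 they were abhd-3.2 (0.95), fard-1 (0.95) and acds-10 (0.94). The genes for fat-1 were ngp-1 (0.95), inx-15 (0.94) and idpp-7 (0.93), and those for fat-3 were rig-3 (0.92), glc-2 (0.90) and pxn-1 (0.89). By the third match the likeness was weakest for elo-2, with tmem-24 (0.92), egl-23 (0.89) and klo-1 (0.85), for fat-6, with tmem-189 (0.90), idpp-3 (0.88) and rsp-6 (0.85), and for fat-5, with drd-1, idpp-3 and srlf-15 (0.84 each).

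The other genes of the pathway were listed in 7 groups, with 43 of 46 found and 42 tested. The group of de novo synthesis held 5 genes: those for the enzymes that supply and build palmitic acid, and mlcd-1, the malonyl-CoA decarboxylase gene, whose product removes the building block. Called among them were acly-2, an ATP citrate lyase gene, in all 3 strains, at 0.66 ± 0.08, 0.81 ± 0.08 and 1.07 ± 0.08 in CA-CRTC-1, in CA-AAK-2 and in the double strain, and acly-1 in CA-CRTC-1 at 0.60 ± 0.08. The acly-1 call was lost under median-ratio scaling (0.52), with equal column totals, in edgeR and DESeq2, and without replicate 3 of N2 or replicate 3 of CA-CRTC-1. The acly-2 levels were 64.1 to 64.2 CPM in N2 and 118.8 to 152 CPM in the double strain.

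The ELO-5 and ELO-6 branch starts from primers made from branched-chain amino acids. All 6 genes in the list of branched-chain precursors had negative differences from N2 in the double strain, with a median of -0.53, and 3 were called lower. Of all genes tested in that comparison 6.87% were called lower, with a median of 0.14. Differences below 0 were also seen for 27 of the 42 tested pathway genes, these 6 included, and for 7 of the 10 members. The 3 called were acs-1, an acyl-CoA synthetase gene (-0.74 ± 0.08), bcat-1, the branched-chain aminotransferase gene (-0.61 ± 0.07), and bckd-1B, a subunit gene of the branched-chain ketoacid dehydrogenase (-0.59 ± 0.06). bcat-1 and bckd-1B lie close to the 1.5-fold threshold and each was lost when double-strain replicate 1 was left out (-0.58 and -0.59), and that of bckd-1B also without N2 replicate 2 or double-strain replicate 3. In CA-AAK-2 all 6 were also below N2, with a median of -0.27 and 0 called by limma. At an adjusted p of 0.05 with no fold threshold 3 of them passed, beside 48.5% of all genes. acs-1 held 219, 241 and 205 CPM in N2 and 125, 126 and 146 CPM in the double strain, and was also called lower against CA-CRTC-1 at -0.69 ± 0.08.

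Of the other elongase and desaturase genes, with 6 tested, elo-9 was called lower in CA-AAK-2 (-0.64 ± 0.11) and in the double strain (-1.09 ± 0.11). In CA-CRTC-1 elo-9 was also below N2, at -0.53 ± 0.11 (limma, adjusted p = 0.00281), under 1.5-fold and so not called. elo-4 was called higher in CA-AAK-2 at 0.62 ± 0.15. The elo-4 call was lost under a pseudocount of 2, under median-ratio scaling, in edgeR and DESeq2 and without several single libraries, and the elo-9 call in CA-AAK-2 was lost without CA-AAK-2 replicate 2 (-0.54). Among 14 regulators and methyl-donor genes, pmt-1, a phosphoethanolamine methyltransferase gene, fell in CA-AAK-2 (-0.61 ± 0.09), though not without N2 replicate 1 (-0.56) or CA-AAK-2 replicate 3 (-0.54), and its partner pmt-2 fell in the double strain (-1.02 ± 0.11). nhr-80, which encodes a nuclear receptor that promotes fat-6 expression in worms, was called lower in the double strain at -0.60 ± 0.13, and not with a pseudocount of 2 or without double-strain replicate 2. sbp-1, the worm SREBP gene, differed from N2 by 0.04 ± 0.10, -0.41 ± 0.10 and 0.11 ± 0.10 in CA-CRTC-1, in CA-AAK-2 and in the double strain and was not called.

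Across all 42 tested pathway genes, limma called 2 higher and 0 lower in CA-CRTC-1, 2 higher and 2 lower in CA-AAK-2, and 1 higher and 7 lower in the double strain against N2, with medians of 0.00, -0.03 and -0.09. Of all genes tested, 6.62% were called higher and 2.17% lower in CA-CRTC-1, 8.20% and 4.40% in CA-AAK-2, and 15.6% and 6.87% in the double strain. In the double strain against CA-AAK-2, pod-2, the acetyl-CoA carboxylase gene, was called higher at 0.94 ± 0.09 and pmt-2 lower at -1.002 ± 0.11. Against CA-CRTC-1, 0 were higher and 5 lower, led by emb-8, the cytochrome P450 reductase gene (-0.72 ± 0.07), pmt-2 (-1.03 ± 0.11), acs-1 and sams-1, an S-adenosylmethionine synthetase gene (-0.72 ± 0.09). The fifth, cytb-5.1, a cytochrome b5 gene (-0.60 ± 0.08), lost its call with a pseudocount of 2, with equal column totals and without single libraries. The interaction called 1 gene higher and 3 lower. The genes of the elongation cycle next to the elongases, art-1 and hpo-8, were called in 0 comparisons by limma.

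**Figure D5:**
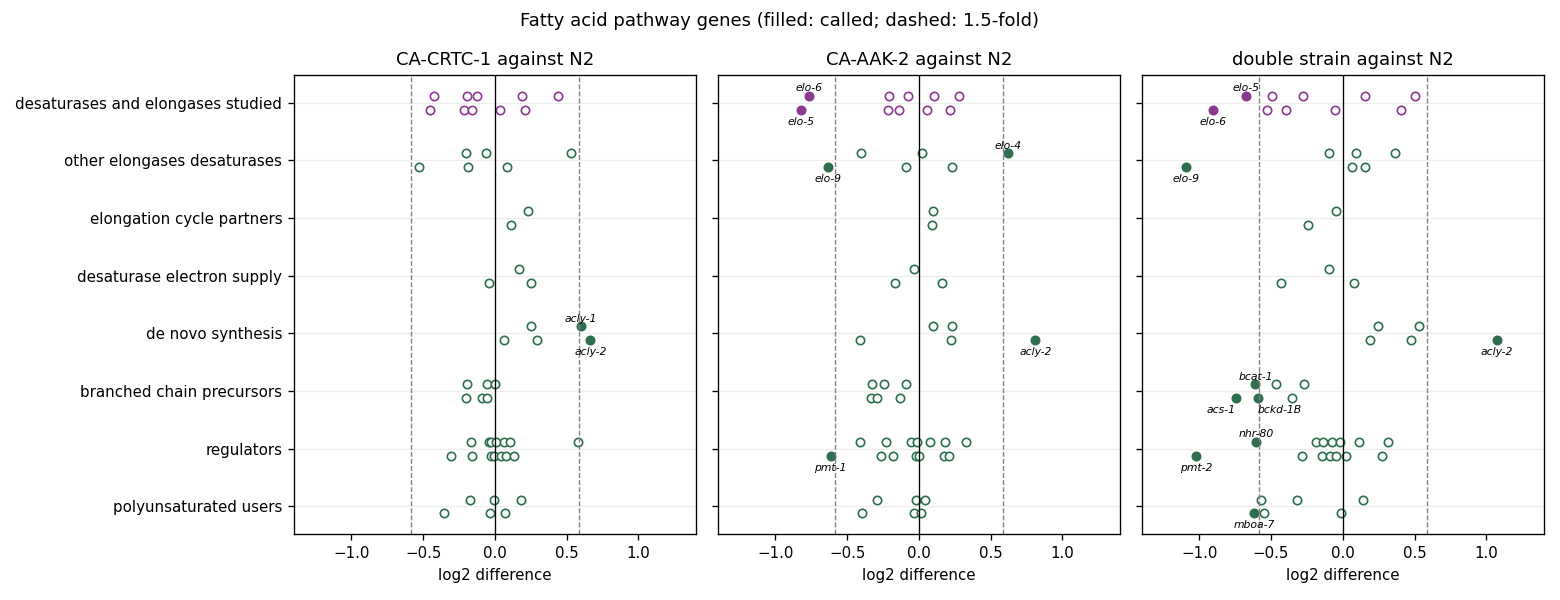
Log2 difference from N2 of the 10 desaturases and elongases and of the 7 other pathway groups, 1 panel per transgenic strain; each circle is a gene, filled and named where called, and dashed lines mark 1.5-fold. All 6 genes of the branched-chain precursor list lie left of 0 in the double strain, with a median of -0.53, as do 7 of the 10 members.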

How the data were processed

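Polyadenylated RNA of 12 whole-animal samples was compared. Per the series text, the deposited CPM had been adjusted by the authors in edgeR, across all samples, for library depth and for composition. Per the submitters' processing notes, CASAVA 1.8.2, cutadapt, TopHat2 2.0.8 and HTSeq were used. Because ce6 and WS238 are named side by side in the series text, the build is uncertain; WBcel235 served only for exon lengths, overlaps and neighbours. Each table has 14508 entries, and merging 3 repeated names left 14505 genes. Dividing by the step of 1 read (0.0178 to 0.0285 CPM) gave whole reads for 100% of values within 0.02 reads.

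limma 3.58.1 (R 4.3.3, trended prior) was run on log2(CPM + 0.5) with all samples in 1 fit, on genes averaging 1 CPM or more in the 12 samples and 5 CPM or more in those compared, with Benjamini-Hochberg adjustment over all of them; it was tested on simulated data. Log2 differences are on that scale, which understates changes of low genes. ± after a log2 difference is the SE and after a level the SD (n = 3). The SE of a gene pools the spread of all strains, also of those not compared. Alternatives were pseudocounts of 0.1 and 2, other filters, scalings, fits and thresholds, edgeR 4.0.16 and DESeq2 1.42.0 on recovered reads, and leaving out each library.

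Replicate numbers come from the labels, which do not say what they share. Same-numbered libraries of CA-AAK-2 and the double strain deviated together (r = 0.252, 0.313 and 0.275, against -0.259 to -0.0233 for other numbers). Deviations from a strain mean sum to 0. Positive values for the same numbers thus make the others negative on average, and the contrast is not separate evidence. These numbers were taken to pair the libraries from these data alone. No other comparison had all 3 values above 0.1. Named genes are the members, aak-2 and crtc-1, up to 6 called pathway genes per comparison by adjusted p, and the 3 genes most like each member; nhr-80, sbp-1, art-1, hpo-8, F41H10.3 and twk-42 were added after their values were seen. Members and lists were chosen with earlier results of these data known. Promoter and protein sequences were not used here, and the planned motif searches were not run.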

Additional observations from a re-analysis of the deposited data

Results flagged for a closer look

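For 1 desaturase and 5 other pathway genes the CA-CRTC-1 difference measured with CA-AAK-2 differed from that measured without it. The adjusted p was at most 0.01 in limma, with no fold threshold, and the share of all genes at this p is not given here. At an adjusted p of 0.05, 2 of the 10 members and 15 of the 42 tested pathway genes passed, beside 20.7% of all genes. The values are log2 differences of differences. crtc-1 itself rose more in the double strain against CA-AAK-2 (4.15) than in CA-CRTC-1 against N2 (3.18), and the part of this was not tested. For fat-2 it was 0.357, under 1.5-fold, with all 3 double-strain libraries above the 9 others. For pod-2 it was 0.687. The values of emb-8, sams-1 and pmt-2 were -0.693, -0.901 and -1.01. hpo-8, a dehydratase gene of the elongation cycle, had -0.371 (adjusted p = 0.00775), under 1.5-fold. Groups of 3 libraries were not tested for outlying samples.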

How the results depend on the processing

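The calls of elo-5 and elo-6 against N2 in CA-AAK-2 and in the double strain held under every alternative run, from -0.77 to -0.95 and -0.60 to -0.82 for elo-5 and from -0.69 to -0.90 and -0.82 to -1.05 for elo-6. With an adjusted p of 0.05 and no fold threshold the members called numbered 2, 5 and 7 against N2 in CA-CRTC-1, in CA-AAK-2 and in the double strain, 5 and 4 in the double strain against CA-AAK-2 and CA-CRTC-1, and 2 for the interaction. Leaving out single libraries gave 2 to 4 members in the double strain against N2, 0 to 2 against CA-AAK-2 and 0 to 1 against CA-CRTC-1. The replicate block gave 1 (fat-5) against CA-AAK-2 and changed no other call of a member or named gene. The other pathway genes called rose under that looser threshold to 12, 19 and 21 against N2 and to 19, 20 and 15 in the other comparisons, and went from 2 to 1 in CA-CRTC-1 with equal column totals. Calls over all genes went from 924 to 1436 (filter of 1 CPM) and 1644 (no filter) in CA-CRTC-1, from 2383 to 3632 (no filter) in the double strain against N2 and from 1198 to 1986 (no filter) against CA-AAK-2, where the alternative tests more genes of low level. Dropping the fold threshold at an adjusted p of 0.05 gave 2799 against 924 calls in CA-CRTC-1, 5027 against 1306 in CA-AAK-2, 6357 against 2383 in the double strain, 3748 against 1198 and 4200 against 949 between strains, and 2191 against 923 for the interaction. Median-ratio scaling moved the split over all genes in the double strain against CA-CRTC-1 from 502 higher and 447 lower to 387 and 574. No member or named gene reversed its direction among the values called in any setting. With 3 libraries a strain, differences of fat-5, whose SE was 0.22 in the fit of all strains, were resolved least.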
